A study of Mus musculus with 6 samples.

Results

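The genes described here carry pyruvate into the mitochondrial tricarboxylic acid (TCA) cycle and run the cycle itself. They are 30 of the 57180 genes in the expression table and were taken by symbol: the pyruvate dehydrogenase complex, its kinases and phosphatases, the cycle enzymes without complex II, and the enzymes of anaplerosis (refilling of the cycle), citrate use and the malate-aspartate shuttle. All 30 were found. RNA was sequenced from wild-type mouse bone marrow-derived macrophages (BMMs), primary cells that fuse into bone-resorbing osteoclasts, after 5 days in osteoclast-inducing culture. There were 3 libraries from cells given Visomitin and 3 control libraries from cells cultured the same way without it. Visomitin, also called SkQ1, is a plastoquinone antioxidant carried into mitochondria by its positive charge. The sources used here do not give its dose or the inducing factors. They also do not say whether the libraries came from separate mice or cultures, so the p-values reflect library-to-library spread, possibly technical.

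Pyruvate made by glycolysis is either reduced to lactate in the cytosol or imported into mitochondria, where the pyruvate dehydrogenase complex turns it into acetyl-CoA. Pyruvate dehydrogenase kinases switch the complex off by phosphorylating its E1 alpha subunit, and dedicated phosphatases switch it back on. Citrate synthase joins acetyl-CoA to oxaloacetate, and the following steps release carbon dioxide and hand electrons to the respiratory chain, on which mitochondrion-rich osteoclasts draw heavily.

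Expression is given as TPM, a relative abundance that corrects for transcript length, so that levels can be compared between genes, but keeps no sequencing depth. Per library, 11551 to 11821 genes reached 1 TPM. The second principal component, with 19.6% of the variance, set Visomitin 1 (25.1) apart from Visomitin 2 (-17.2) and Visomitin 3 (-16.8). Across 11753 tested genes, 244 were higher and 591 lower with Visomitin, with 462 higher and 700 lower when libraries were scaled by median ratios, and 559 higher and 651 lower when quantiles were equalised. Of 9 macrophage markers, all expressed, 2 rose (Mrc1 and Mertk) and 0 fell, with summed levels of 6133 to 7435 TPM in Visomitin libraries and 6238 to 6510 TPM in control libraries. All 10 osteoclast markers fell, and their summed level was 2938 to 3531 TPM in Visomitin libraries against 11171 to 12121 TPM in control libraries. Stromal markers summed to 75.5 to 163 TPM in Visomitin libraries and 108 to 327 TPM in control libraries. Megakaryocyte markers, nearly all Pf4, summed to 351 to 484 TPM with Visomitin and 334 to 456 TPM in controls. While 6 of 8 neutrophil, 3 of 5 B cell and 4 of 5 erythroid markers were listed at 0 in every library, others were detected. Neutrophil markers, nearly all S100a8, summed to 8.82 to 15.3 TPM with Visomitin and 11.6 to 19.5 TPM in controls. B cell markers summed to 0.80 to 1.65 TPM with Visomitin and 0.30 to 0.51 TPM in controls, and T cell markers to 0.64 to 1.45 TPM and 0 to 0.14 TPM.

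Several transcripts of pyruvate entry and the TCA cycle fell with Visomitin, most of all Mdh2 and Idh3a, and none was called higher. Of the 30 genes, 29 reached the level needed for testing and 11 of them fell, 0 rose and 18 did not pass (limma on log2(TPM + 1), Benjamini-Hochberg adjusted p under 0.05 over all tested genes). Among all tested genes, 5.03% fell and 2.08% rose, 7.1% in either direction. The median log2 fold change, Visomitin minus control as everywhere here, was -0.29 for the 29 genes and -0.03 for all tested genes. It was below 0 for 27 of the 29, as for 55.7% of all tested genes. For 20 of the 30 genes every Visomitin library lay below every control library, which held for 18.4% of all tested genes. For 0 of the 30 did every Visomitin library lie above every control library, which held for 11.9% of all tested genes. Summed over the 30 genes, the level was 2096, 2391 and 2358 TPM in Visomitin 1, 2 and 3, against 3128, 3151 and 3124 TPM in control 1, 2 and 3. The osteoclast markers fell in the same libraries, and their part in these differences was not tested. In bulk RNA, fewer osteoclasts and less RNA of a gene per cell cannot be told apart.

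**Figure D1:**
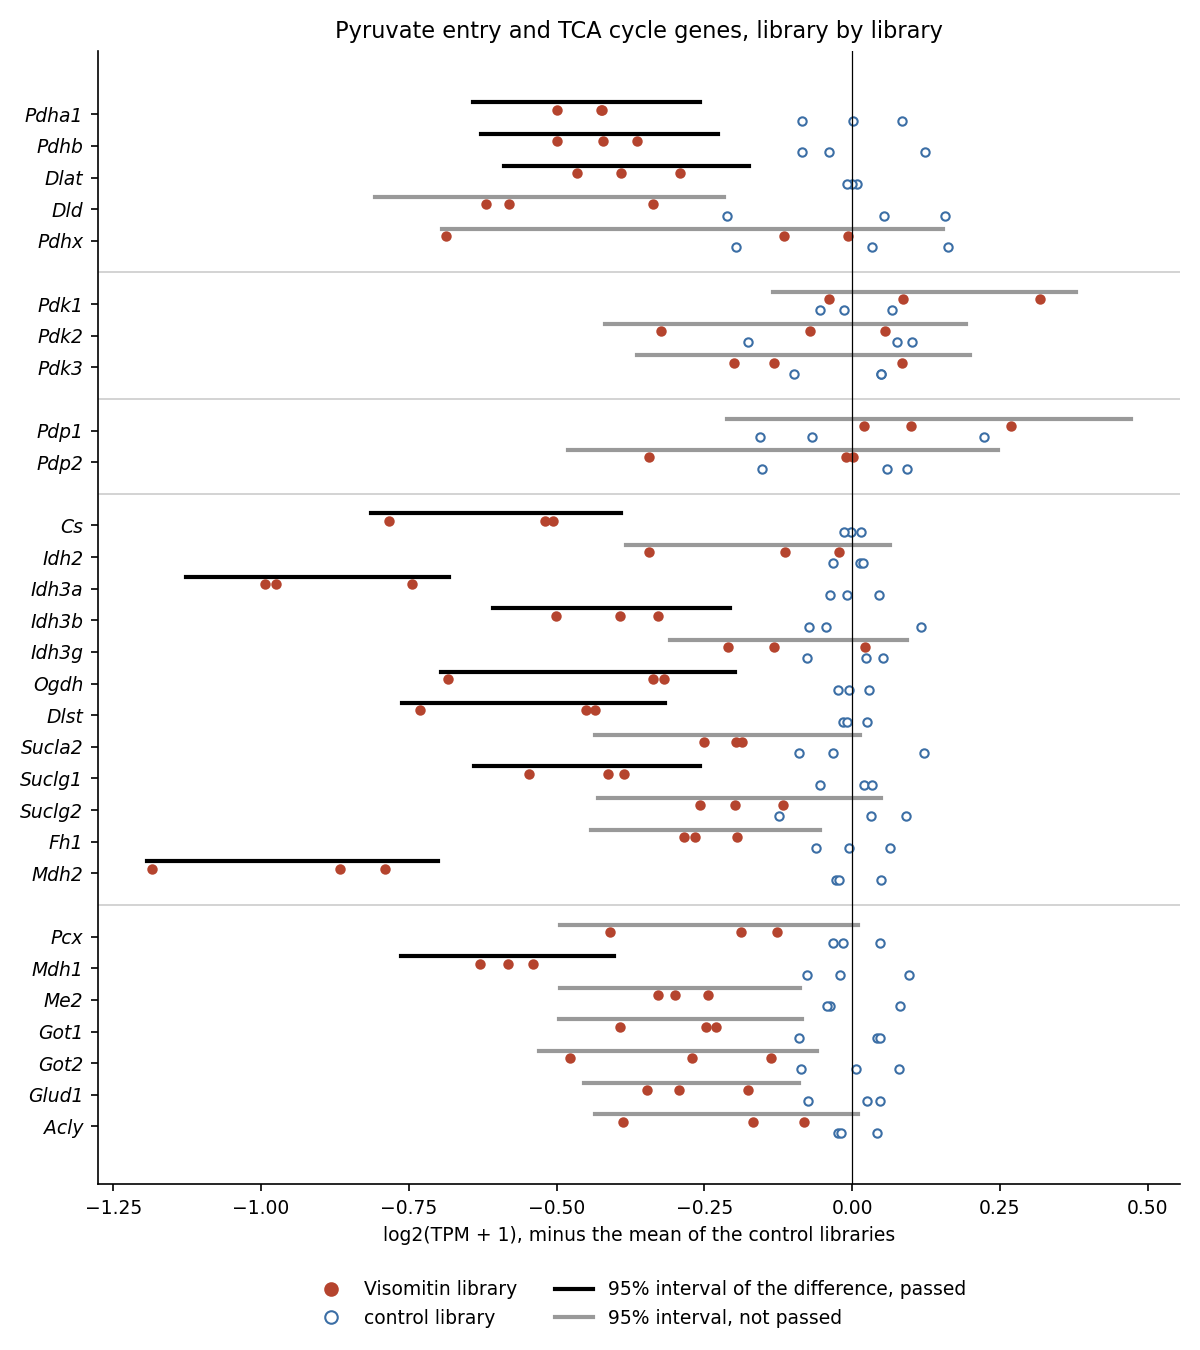
Each row is a gene. Filled points are the 3 Visomitin libraries and open points the 3 control libraries, as log2(TPM + 1) minus the mean of the control libraries, and the bar above them is the 95% interval of the difference (black where the adjusted p is under 0.05, grey where not). Groups from top to bottom are the pyruvate dehydrogenase core, its kinases, its phosphatases, the cycle enzymes, and the anaplerotic, citrate-using and shuttle enzymes; Mdh2 and Idh3a lie farthest to the left, and Pdk4 is not drawn because its level was under the minimum.

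How firmly these calls stood differed from gene to gene. Mdh2, Idh3a, Cs and Mdh1 passed here and in each of 16 alternative settings. The other 7 that fell, Pdha1, Pdhb, Dlat, Idh3b, Ogdh, Dlst and Suclg1, missed the threshold in at least 1 setting, while their log2 fold changes kept their sign. The count of 11 became 12 without Visomitin 1, 5 without Visomitin 2, 8 without Visomitin 3, 4 without control 1, 4 without control 2 and 6 without control 3. Over all tested genes the share that fell in those fits was 4.77%, 2.59%, 4.76%, 2.08%, 2.81% and 2.46%, in the same order. Visomitin 1 was the lowest Visomitin library for 21 of the 30 genes, and it was the lowest for 63.9% of all tested genes. Exons of Pdha1, Mdh1 and Idh3b overlap those of genes on the opposite strand (Map3k15 by 603 bases at 1.67 TPM, Wdpcp by 52 bases at 2.77 TPM and Nop56 by 5 bases at 63.0 TPM), and whether reads were counted by strand is not stated.

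Promoter sequences are shown for the 3 genes with a RefSeq window among those 4, picked after their values were seen, and for Dld and Sucla2, which held the only matches to either of 2 motifs linked to mitochondrial genes. Windows run from 250 bases before to 50 after the start site, were found for 27 of the 30 genes (RefSeq, GRCm38.p6), and are printed in the direction of transcription with motif matches in capitals.
Mdh2 (chr5:135778399-135778698, plus strand): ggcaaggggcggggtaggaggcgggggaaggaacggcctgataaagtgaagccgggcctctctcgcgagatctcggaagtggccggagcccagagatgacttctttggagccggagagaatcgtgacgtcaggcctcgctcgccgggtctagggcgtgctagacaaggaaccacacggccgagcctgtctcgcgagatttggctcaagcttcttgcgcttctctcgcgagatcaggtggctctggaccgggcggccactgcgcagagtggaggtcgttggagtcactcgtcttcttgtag
Cs (chr10:128337477-128337776, plus strand): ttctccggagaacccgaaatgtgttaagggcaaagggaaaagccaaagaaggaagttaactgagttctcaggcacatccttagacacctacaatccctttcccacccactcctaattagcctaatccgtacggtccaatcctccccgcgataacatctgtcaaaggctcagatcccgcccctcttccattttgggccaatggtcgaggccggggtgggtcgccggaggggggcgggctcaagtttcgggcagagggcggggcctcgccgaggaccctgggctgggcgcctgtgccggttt
Mdh1 (chr11:21571885-21572184, minus strand): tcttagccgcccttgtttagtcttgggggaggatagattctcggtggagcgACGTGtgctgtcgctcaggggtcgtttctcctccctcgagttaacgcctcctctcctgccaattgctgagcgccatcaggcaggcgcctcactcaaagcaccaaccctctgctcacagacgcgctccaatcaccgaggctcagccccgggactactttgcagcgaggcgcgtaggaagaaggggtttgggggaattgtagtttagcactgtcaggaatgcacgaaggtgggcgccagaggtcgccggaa
Dld (chr12:31351422-31351721, minus strand): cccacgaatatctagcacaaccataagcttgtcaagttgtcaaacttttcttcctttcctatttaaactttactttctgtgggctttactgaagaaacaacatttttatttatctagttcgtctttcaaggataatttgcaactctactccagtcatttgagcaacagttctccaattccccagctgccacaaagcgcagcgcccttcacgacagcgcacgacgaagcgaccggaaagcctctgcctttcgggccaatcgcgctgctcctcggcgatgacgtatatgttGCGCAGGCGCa
Sucla2 (chr14:73552536-73552835, plus strand): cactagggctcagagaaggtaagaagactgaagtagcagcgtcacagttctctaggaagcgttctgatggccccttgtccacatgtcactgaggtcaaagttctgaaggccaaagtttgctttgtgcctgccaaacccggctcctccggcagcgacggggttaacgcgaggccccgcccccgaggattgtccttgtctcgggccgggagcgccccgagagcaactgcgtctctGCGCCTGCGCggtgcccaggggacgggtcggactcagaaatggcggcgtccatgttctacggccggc
Both strands were searched for TCAAGGTCA (bound by estrogen-related receptors), the NRF1 motif, CACGTG (the E-box) and ACGTG (the HIF core, which every E-box contains). The estrogen-related receptor motif was in 0 of the 27 genes and in 0.466% of all genes in the table. NRF1 matches stood in 2 of 27, or 7.41%, against 5.19% of all genes, at base 290 of the Dld window and base 234 of the Sucla2 window. The E-box was in 4 of 27, or 14.8%, against 8.09% of all genes, and the HIF core in 9 of 27, or 33.3%, against 21.8%. No match was found in the Mdh2 and Cs windows, and Mdh1 held a single HIF core. These counts describe letters in 1 short window per start site.

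Mdh2 encodes mitochondrial malate dehydrogenase, which closes the cycle by regenerating oxaloacetate, and it was the most abundant of the 30 transcripts in both groups. Its level was 247, 308 and 324 TPM in Visomitin 1, 2 and 3, against 551, 553 and 581 TPM in the controls. The highest Visomitin library thus lay far below the lowest control. The mean of 293 ± 40.9 TPM was 47.9% below the 562 ± 16.8 TPM of controls (SD, n = 3 each; log2 fold change -0.95, SE 0.11, limma adjusted p = 0.0020).

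Idh3a encodes the catalytic alpha subunit of the NAD-dependent isocitrate dehydrogenase. It had 33.0, 32.6 and 38.9 TPM in Visomitin 1, 2 and 3, against 64.2, 65.5 and 68.0 TPM in control 1, 2 and 3. The groups did not overlap, and the log2 fold change was -0.90 (SE 0.10, limma adjusted p = 0.0015). Idh3b, a regulatory subunit of the same enzyme, also fell, with 125, 141 and 135 TPM in Visomitin 1, 2 and 3 against 172, 192 and 168 TPM in the controls (-0.41, SE 0.09, adjusted p = 0.031). That call held without Visomitin 1 and was lost when any other single library was left out, without a filter on low values, and without limma's variance trend. The third subunit gene, Idh3g, had 141, 166 and 149 TPM in Visomitin libraries and 155, 169 and 166 TPM in controls, with overlapping groups (-0.11, 95% interval -0.31 to 0.09, adjusted p = 0.50).

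The alpha subunit transcript was the scarcest of the 3 in both groups. Per Idh3g transcript there were 0.234, 0.197 and 0.261 Idh3a transcripts in Visomitin 1, 2 and 3, against 0.414, 0.387 and 0.409 in the controls. Per Idh3b transcript the Idh3a level was 0.261 ± 0.029 with Visomitin and 0.373 ± 0.032 in controls (SD, n = 3 each). Neither ratio overlapped between groups. For each the exact two-sided permutation test gave p = 0.1, the smallest that 3 against 3 libraries allow, and 0.25 after adjustment over the 10 ratios and shares compared, so neither passed.

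**Figure D2:**
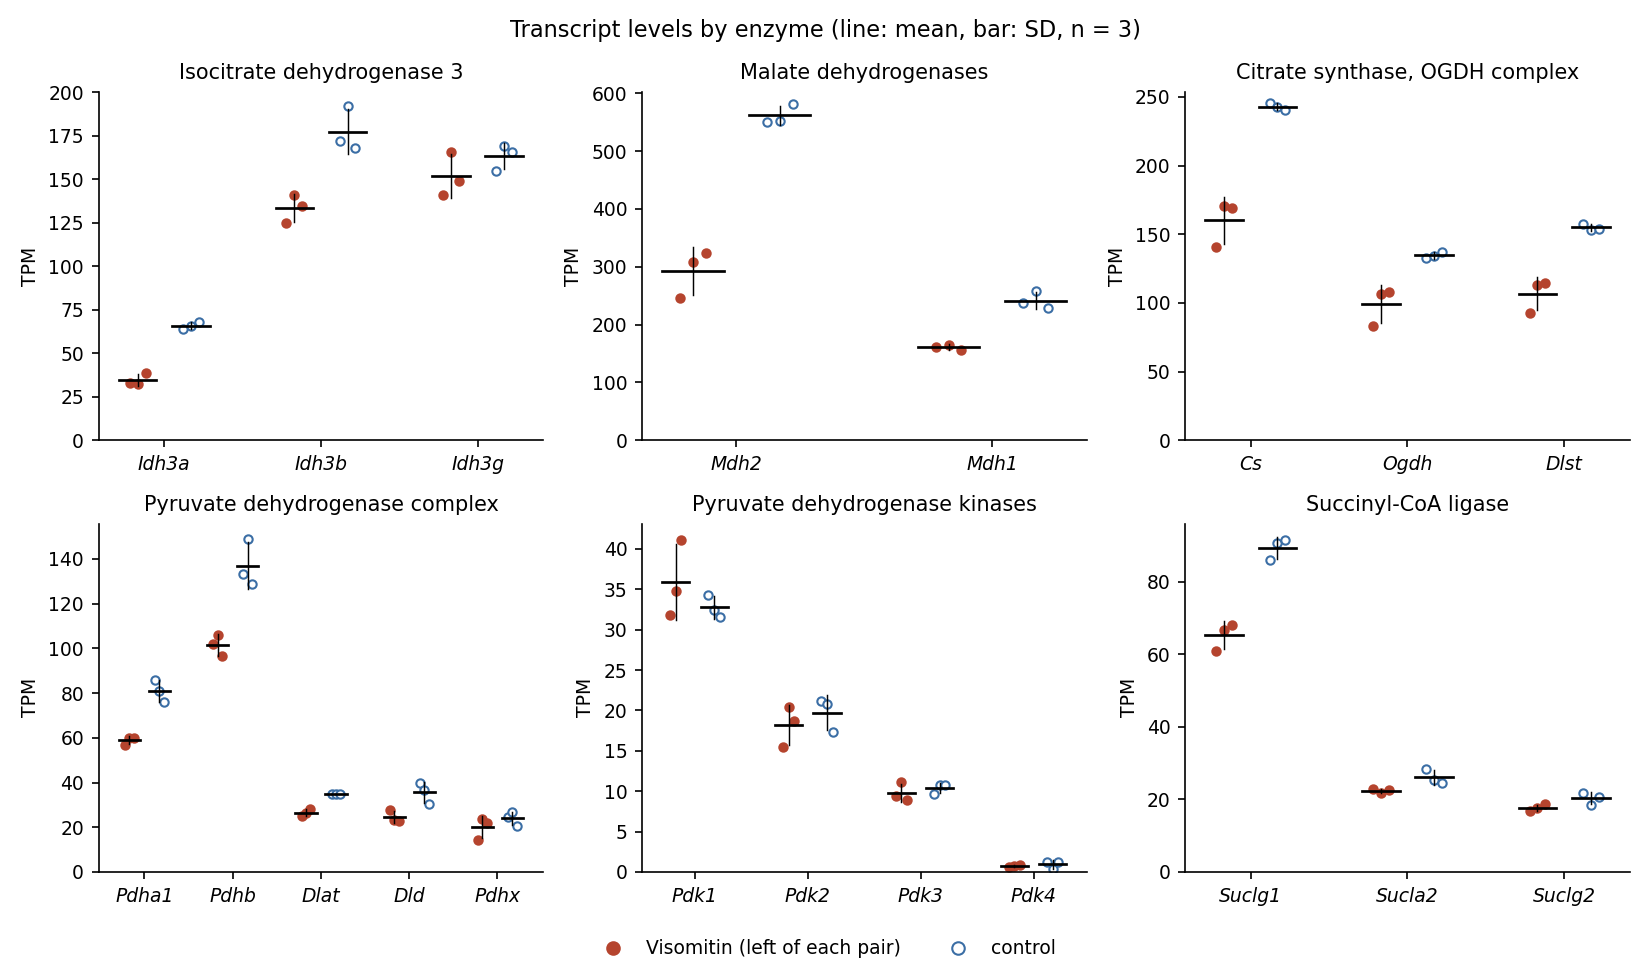
Transcript levels in TPM on linear axes from 0, one panel per enzyme, with Visomitin libraries (filled) left of control libraries (open) for each gene, the mean as a horizontal line and the SD as a vertical bar (n = 3). Idh3a and Mdh2 show the widest relative gaps, with means of 34.8 TPM (Visomitin) against 65.9 TPM (control) and 293 TPM (Visomitin) against 562 TPM (control), while the groups overlap for Idh3g, Pdhx, Suclg2 and all 4 kinases.

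Citrate synthase (Cs), which starts the cycle, fell by a smaller amount with little spread among controls. Its level was 141, 171 and 169 TPM in Visomitin 1, 2 and 3, against 245, 242 and 241 TPM in the controls (-0.60, SE 0.09, limma adjusted p = 0.0082). Both specific subunits of the 2-oxoglutarate dehydrogenase complex fell as well. Dlst, its succinyl-transferring E2 subunit, had 93.0, 113 and 114 TPM in Visomitin 1, 2 and 3 against 158, 153 and 154 TPM in the controls (-0.54, SE 0.10, adjusted p = 0.016). Ogdh, its E1 subunit, had 83.5, 106 and 108 TPM in Visomitin 1, 2 and 3 against 133, 134 and 137 TPM in the controls (-0.45, SE 0.11, adjusted p = 0.047). In both, Visomitin 1 was the lowest library, and the groups did not overlap. Dlst missed the threshold without control 1, control 2 or control 3 and with no filter on low values (adjusted p up to 0.074 over all alternatives). Ogdh missed it in those settings, without Visomitin 2 and without the variance trend (up to 0.14).

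Succinyl-CoA ligase pairs the alpha subunit Suclg1 with either Sucla2, which makes ATP, or Suclg2, which makes GTP. Suclg1 fell, with 60.8, 66.7 and 68.1 TPM in Visomitin 1, 2 and 3 against 85.9, 90.5 and 91.4 TPM in the controls (-0.45, SE 0.08, limma adjusted p = 0.018). Its call was lost without Visomitin 2 or any single control (adjusted p up to 0.075). Sucla2 averaged 22.4 ± 0.55 TPM with Visomitin and 26.1 ± 2.08 TPM in controls, and Suclg2 17.6 ± 0.91 TPM with Visomitin and 20.3 ± 1.61 TPM in controls (SD, n = 3 each). Neither beta subunit passed (-0.21, adjusted p = 0.23, and -0.19, adjusted p = 0.31). The groups did not overlap for Sucla2 and overlapped for Suclg2. The Suclg2 to Sucla2 ratio was 0.789 ± 0.045 with Visomitin and 0.780 ± 0.062 in controls, a difference smaller than the spread between libraries (exact permutation p = 0.9).

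The 2 remaining cycle enzymes did not pass. Fumarase (Fh1) had 40.9, 40.4 and 43.0 TPM in Visomitin libraries and 49.2, 51.7 and 47.3 TPM in controls, without overlap (-0.25, SE 0.08, limma adjusted p = 0.12). Idh2, the NADP-dependent mitochondrial isocitrate dehydrogenase, averaged 103 ± 11.6 TPM with Visomitin and 114 ± 2.23 TPM in controls (SD, n = 3 each; -0.16, 95% interval -0.38 to 0.06, adjusted p = 0.36). Of the 12 cycle enzyme genes, 7 thus fell and all 12 had values below 0, against 5.03% and 55.7% of all tested genes.

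Of the 5 core genes of the pyruvate dehydrogenase complex, 3 fell, against 5.03% of all tested genes. None of the tested kinases and phosphatases of the complex passed. Pdha1, the E1 alpha subunit that the kinases phosphorylate, had 57.0, 60.0 and 60.1 TPM in Visomitin 1, 2 and 3, against 85.8, 81.0 and 76.2 TPM in the controls (-0.45, SE 0.08, limma adjusted p = 0.018). Pdhb, the E1 beta subunit, had 102, 106 and 96.4 TPM in Visomitin 1, 2 and 3 against 133, 149 and 129 TPM in the controls (-0.43, SE 0.09, adjusted p = 0.025). The Pdhb to Pdha1 ratio differed by less than its spread between libraries, at 1.72 ± 0.10 with Visomitin and 1.69 ± 0.14 in controls (SD, n = 3 each; exact permutation p = 0.8).

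Dlat, the E2 acetyltransferase, had 25.0, 26.4 and 28.3 TPM in Visomitin libraries and 35.1, 34.9 and 34.7 TPM in controls (-0.38, SE 0.09, limma adjusted p = 0.043). Pdha1 lost its call without Visomitin 2, control 1 or control 2 (adjusted p up to 0.084). Pdhb and Dlat lost theirs without any single library other than Visomitin 1, without a filter on low values, and without the variance trend, and Dlat also with the library number as a block (up to 0.093 for Pdhb and 0.14 for Dlat). Dld, the E3 subunit shared with the 2-oxoglutarate complex, had the largest log2 fold change of the core at -0.51 and narrowly missed the threshold (SE 0.13, adjusted p = 0.051). Its level was 27.9, 23.4 and 22.7 TPM in Visomitin libraries and 39.6, 36.8 and 30.4 TPM in controls, and it passed in 5 of 16 alternatives, among them those without Visomitin 1 or control 3. Pdhx, the E3-binding protein, varied widely among Visomitin libraries, with 14.4, 23.7 and 21.9 TPM against 24.4, 26.7 and 20.6 TPM in controls (-0.27, 95% interval -0.69 to 0.15, adjusted p = 0.42).

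Among the inhibitory kinases Pdk1, a hypoxia-inducible isoform, was the most abundant, followed by Pdk2, Pdk3 and Pdk4 in both groups. Pdk1 had 31.9, 34.8 and 41.1 TPM in Visomitin 1, 2 and 3, against 34.4, 32.4 and 31.5 TPM in the controls, with overlapping groups (0.12, 95% interval -0.13 to 0.38, limma adjusted p = 0.55). Pdk2 averaged 18.2 ± 2.51 TPM with Visomitin and 19.7 ± 2.14 TPM in controls (-0.11, adjusted p = 0.65), and Pdk3 9.80 ± 1.14 TPM with Visomitin and 10.4 ± 0.66 TPM in controls (-0.08, adjusted p = 0.73; SD, n = 3 each). Pdk4, the isoform associated with fasting and fat oxidation, was at 0.58, 0.68 and 0.81 TPM in Visomitin libraries and 1.20, 0.31 and 1.27 TPM in controls. That is under the minimum of 1 TPM in 3 libraries, and Pdk4 was not tested.

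The summed kinase level was 64.6 ± 6.42 TPM with Visomitin and 63.8 ± 2.78 TPM in controls (SD, n = 3 each). Pdk1 supplied 55.6%, 51.9% and 59.1% of it in Visomitin 1, 2 and 3, against 51.8%, 50.5% and 51.8% in the controls. The groups did not overlap, with exact permutation p = 0.1, the smallest that 3 against 3 libraries allow, and 0.25 after adjustment over 10 measures. The shares of Pdk2, Pdk3 and Pdk4 overlapped. Set against the lower Pdha1, the summed kinase level per Pdha1 transcript was 1.01, 1.12 and 1.16 in Visomitin 1, 2 and 3 and 0.773, 0.794 and 0.798 in the controls. This ratio was chosen after its values were seen and is given without a test. Of the phosphatases, Pdp1 had 5.82, 6.67 and 5.45 TPM with Visomitin and 6.43, 5.07 and 4.71 TPM in controls (0.13, adjusted p = 0.64), and Pdp2 2.66, 3.61 and 3.65 TPM with Visomitin and 3.95, 3.84 and 3.18 TPM in controls (-0.12, adjusted p = 0.70).

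**Figure D3:**
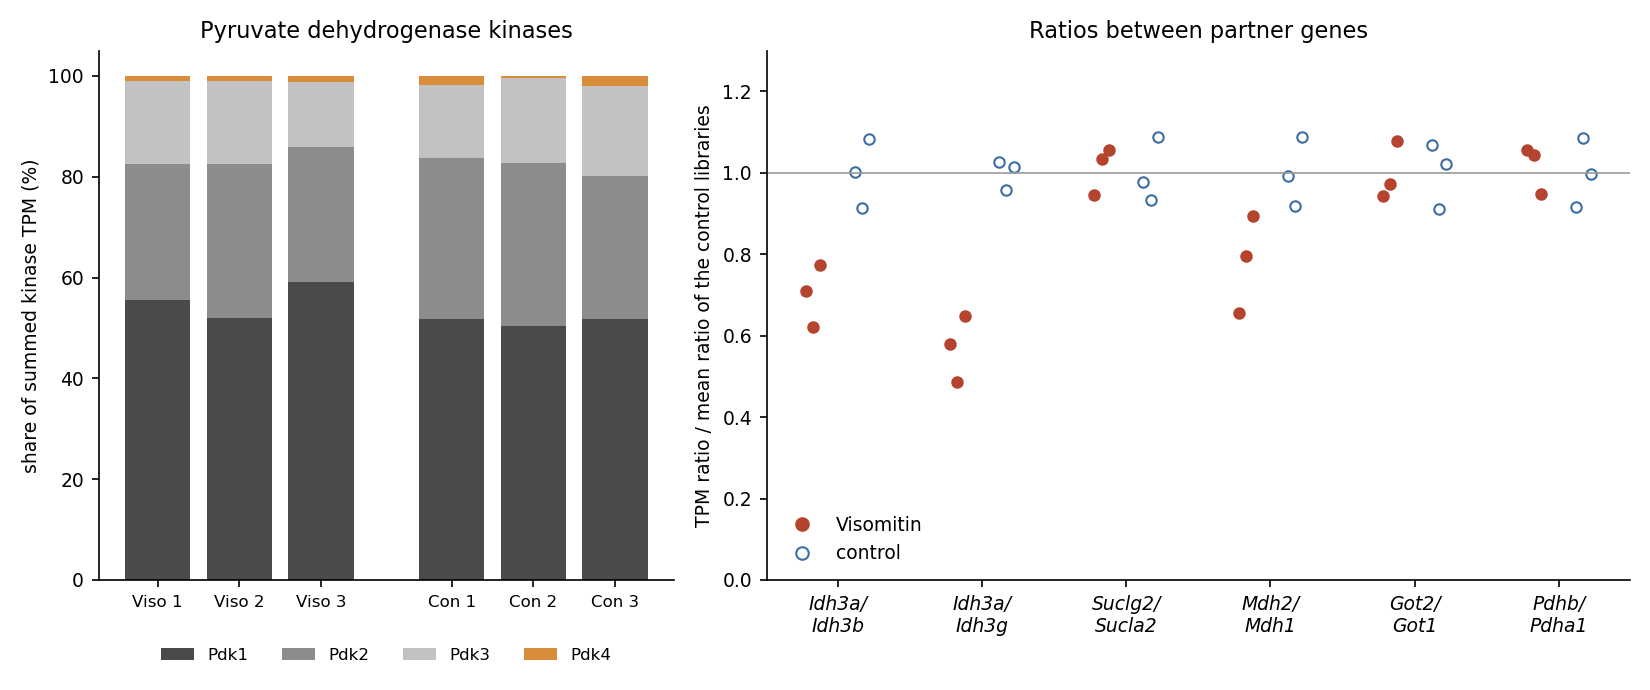
Left, the share of each kinase gene in the summed kinase TPM (%), one stacked bar per library, Visomitin (Viso) left of control (Con). Right, 6 TPM ratios between partner genes, each divided by its mean in the control libraries, with Visomitin filled and left of control; Idh3a/Idh3b, Idh3a/Idh3g and Mdh2/Mdh1 lie below all controls, and the other 3 ratios overlap.

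In the malate-aspartate shuttle, which carries reducing equivalents from cytosolic NADH into mitochondria, the cytosolic malate dehydrogenase Mdh1 fell. It had 161, 166 and 155 TPM in Visomitin 1, 2 and 3, against 238, 258 and 229 TPM in the controls (-0.58, SE 0.08, limma adjusted p = 0.0045). The mitochondrial Mdh2 was the more abundant of the pair in every library, by 1.53, 1.86 and 2.09 to 1 in Visomitin libraries and 2.32, 2.14 and 2.54 to 1 in controls. Those ratios did not overlap between groups (exact permutation p = 0.1, the smallest that 3 against 3 libraries allow, and 0.25 after adjustment over 10 measures). The aspartate aminotransferases did not pass. Got1, the cytosolic form, had 46.6, 52.3 and 51.7 TPM with Visomitin and 57.8, 63.4 and 63.6 TPM in controls, without overlap (-0.29, adjusted p = 0.095). Got2, the mitochondrial form, had 113, 131 and 144 TPM with Visomitin and 159, 149 and 167 TPM in controls, also without overlap (-0.29, adjusted p = 0.13), and the Got2 to Got1 ratio was 2.57 ± 0.18 with Visomitin and 2.58 ± 0.21 in controls (exact permutation p = 1).

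The enzymes among the 30 that feed or drain the cycle did not pass. Glud1, glutamate dehydrogenase, was the second most abundant of the 30, at 270, 292 and 260 TPM with Visomitin and 342, 314 and 336 TPM in controls (-0.27, SE 0.08, limma adjusted p = 0.080). Me2, the mitochondrial malic enzyme, had 29.1, 30.9 and 29.7 TPM with Visomitin and 39.0, 35.8 and 35.7 TPM in controls (-0.29, adjusted p = 0.091). The groups overlapped for neither of these genes, nor for Pcx and Acly, which follow. Pyruvate carboxylase (Pcx), which makes oxaloacetate from pyruvate, averaged 16.7 ± 1.78 TPM with Visomitin and 19.9 ± 0.60 TPM in controls (-0.24, adjusted p = 0.22), and Acly, which splits exported citrate in the cytosol, 87.3 ± 9.45 TPM with Visomitin and 100.9 ± 2.58 TPM in controls (-0.21, adjusted p = 0.22; SD, n = 3 each). Of these 7 anaplerotic, citrate-using and shuttle genes, 1 fell and all 7 had values below 0, against 5.03% and 55.7% of all tested genes.

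Across the 29 tested genes, the more abundant ones in controls tended to have the lower ratio of Visomitin to control mean TPM (Spearman rho = -0.61, Pearson r = -0.60 on log2 levels, n = 29 genes). This is a description across genes of the same 6 libraries, in which the control mean enters both measures. The order of levels barely moved: Mdh2 and Glud1 ranked first and second in both groups, while Idh3a ranked 18 of 30 with Visomitin and 15 in controls and Pdk1 ranked 17 with Visomitin and 21 in controls.

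Beyond the 30 genes, some of the surrounding pathway fell as well. Of 12 tested genes for the rest of the cycle, complex II and cytosolic counterparts, 3 fell and 0 rose (median -0.22). Over all tested genes 5.03% fell and 2.08% rose, with a median of -0.03. Sdha, the flavoprotein of complex II, averaged 200.4 ± 8.17 TPM with Visomitin and 261 ± 11.3 TPM in controls (SD, n = 3 each; -0.38, limma adjusted p = 0.023), and its call was lost without Visomitin 2, without any single control and without the variance trend. The cytosolic malic enzyme Me1 had 11.3, 14.6 and 13.2 TPM with Visomitin and 20.8, 21.4 and 23.0 TPM in controls (-0.70, limma adjusted p = 0.012), and its call was lost without control 3.

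Of 13 genes for the mitochondrial pyruvate carrier and for making and attaching lipoate, the cofactor of Dlat and Dlst, 2 fell and 0 rose (median -0.20). The shares over all tested genes were 5.03% and 2.08%. Mpc2, a subunit of the carrier, had 45.0, 45.2 and 44.7 TPM with Visomitin and 60.2, 68.5 and 59.4 TPM in controls (-0.47, limma adjusted p = 0.020), and its partner Mpc1 96.9, 89.9 and 78.8 TPM with Visomitin and 90.6, 81.9 and 75.5 TPM in controls (0.10, adjusted p = 0.63). Isca1, an iron-sulfur cluster assembly gene, fell (-0.48, adjusted p = 0.030), and Lias, lipoate synthase, did not pass (-0.37, adjusted p = 0.065). The Mpc2 call was lost without Visomitin 2, control 1 or control 2, and the Isca1 call without any single library other than Visomitin 1, without a filter on low values, and without the variance trend.

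Among 6 tested carriers of cycle intermediates, 1 fell and 0 rose (median -0.02), against 5.03% and 2.08% of all tested genes. A single call is not a result about the list. Slc25a13, an aspartate-glutamate carrier of the malate-aspartate shuttle, had 12.5, 12.7 and 13.7 TPM with Visomitin and 20.8, 21.5 and 21.9 TPM in controls (-0.68, limma adjusted p = 0.0058), and passed in all 16 alternatives. Its paralogue Slc25a12 did not pass (0.02, 95% interval -0.25 to 0.30, adjusted p = 0.93). The citrate carrier Slc25a1 (0.19, adjusted p = 0.31) and the glutamate carrier Slc25a22 (-0.21, adjusted p = 0.37) did not pass.

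Of 7 tested genes for glutamine use and transamination, 1 rose and 1 fell (median -0.04), against 2.08% and 5.03% of all tested genes. Single calls are not a result about the list. Pck2, the mitochondrial PEP carboxykinase that withdraws oxaloacetate, rose to 43.7, 45.2 and 51.8 TPM with Visomitin, against 21.7, 18.8 and 21.2 TPM in controls (1.15, SE 0.11, limma adjusted p = 0.00065; passed in all 16 alternatives). Slc1a5, a glutamine transporter, fell (-0.72, adjusted p = 0.027), and its call was lost without Visomitin 2, without any single control, with no filter on low values (adjusted p = 0.097) and without the variance trend. Of 12 HIF-responsive genes, 4 rose and 0 fell (median 0.29), against 2.08% and 5.03% of all tested genes. The 4 were Ndrg1 (0.60, adjusted p = 0.021), Vegfa (0.96, adjusted p = 0.022), Egln3 (1.01, adjusted p = 0.040) and Bnip3 (0.52, adjusted p = 0.045). These calls depended on the processing and on single libraries. With every library kept, 0 of the 12 rose with no filter on low values, 2 without the variance trend and 7 with array weights. Over all tested genes, 73 of 22323, 168 of 11753 and 1263 of 11753 rose in those fits. With 1 library left out, 0 rose without Visomitin 2 or without control 1, 1 without control 2 and 2 without Visomitin 3. Over all 11753 tested genes, 64, 65, 108 and 130 rose in those fits, in the same order. Without Visomitin 1 and without control 3, Ndrg1 and Vegfa kept their calls and Bnip3 lost its call. Egln3 kept its call without control 3 and lost it without Visomitin 1.

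**Figure D4:**
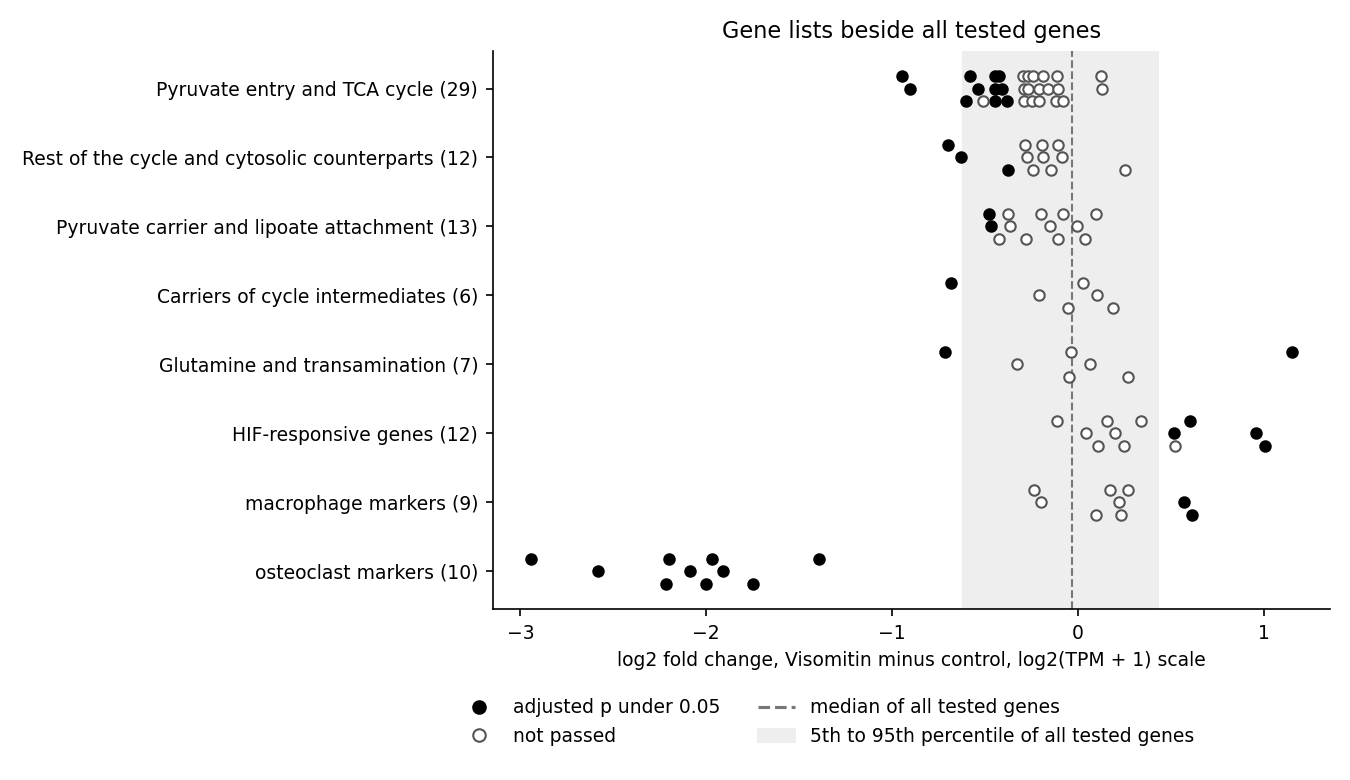
Log2 fold change (Visomitin minus control, log2(TPM + 1) scale) of each tested gene by list, with the number tested in brackets; filled points have an adjusted p under 0.05. The dashed line is the median of all tested genes (-0.03) and the grey band their 5th to 95th percentile (-0.62 to 0.43); Mdh2 and Idh3a lie left of the band, and all osteoclast markers lie far to the left.

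At the other fate of pyruvate, the lactate dehydrogenase subunit gene Ldhb averaged 25.5 ± 2.55 TPM with Visomitin and 101 ± 5.28 TPM in controls (SD, n = 3 each; -1.94, limma adjusted p = 3.03e-05), and Ldha did not pass (-0.01, adjusted p = 0.98). The osteoclast genes Acp5 (-2.09), Ctsk (-2.22) and Mmp9 (-1.39) fell further than any of the 30 genes on this scale.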

How the data were processed

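RNA was sequenced in 6 libraries, 3 with Visomitin and 3 control. Per the labels' protocols, TRIzol extraction and DNase I digestion preceded a stranded mRNA library kit; the submitters' processing notes name fastp, HISAT2 and StringTie. Versions, genome build, annotation and counting step: not given in the sources used here. Each TPM column sums to the same total. The authors computed the deposited TPM per gene within each library, and they were used unscaled. TPM carry no depth, so precision rests on the 3 libraries per group.

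The 30 genes and all lists were chosen with earlier results of these data known. Symbols came from a gene name table (51884 of 57180 identifiers matched). The test covered the 11753 genes that reached 1 TPM in 3 or more libraries: log2(TPM + 1), limma 3.58.1 (R 4.3.3, trended eBayes, group as the only term, two-sided, Benjamini-Hochberg over all tested genes, threshold 0.05). Fold changes on this scale understate the change of low genes. Ratios and shares were compared by exact two-sided permutation of group labels (SciPy 1.17.1), adjusted over 10 measures. The fit was also run on simulated data with each gene drawn independently, and no result here rests on that run. Named genes are all 30, the 3 with the lowest p of each further list (2 of these genes are not reported here), and Ldha, Ldhb, Acp5, Ctsk and Mmp9; Bnip3, Mpc1 and Slc25a12 were named after their values were seen.

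Alternatives were pseudocounts of 0.1 and 5, no filter, a mean of at least 5 TPM, median-ratio or quantile scaling, mitochondrially encoded genes left out, no trend, array weights, the library number as a block, and each library left out. Pdhb, Suclg2 and Got2 share at least 10% of their 31-base words with another gene, at 0, 0 and 0.04 TPM. At most 0.391% of tested genes had identical values in any pair of libraries.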

Additional observations from a re-analysis of the deposited data

How the results depend on the processing

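Each tested gene among the 30 kept the sign of its log2 fold change in every alternative run, except Pdk3 (0.0386 with array weights), and 0 were called higher in any. The count that fell was 6 with no filter on low values, 7 without the trend and 17 with array weights. In those fits 1.38% (of 22323 genes), 3.93% and 13.4% of all tested genes fell. The count was 4 to 12 when 1 library was left out, where 2.08% to 4.77% of all tested genes fell. It stayed at 11 or 12 under both pseudocounts, the filter on a mean of 5 TPM, both scalings, without mitochondrially encoded genes and with the block. There, 4.85% to 6.8% of all tested genes fell. Over all genes, 73 were higher and 308 lower with no filter, 1263 higher and 1572 lower with array weights, 462 higher with median-ratio scaling and 559 with quantile normalization; with 1 library left out, 64 to 420 were higher and 244 to 561 lower. Fits with a library left out have fewer residual degrees of freedom. The cause of the other changes was not tested.

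The labels state no pairing, so libraries with the same number were not treated as pairs. Residuals of libraries with the same number correlated at 0.046, 0.02 and 0.173, and those of libraries with different numbers at -0.145 to 0.087. With 3 libraries per group these values cannot exclude a pairing. With the library number as a block, 11 of the 30 fell (10 of them as without it, Dlat lost and Dld gained), and 308 genes were higher and 799 lower in all.

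With 1 library left out, the difference (Visomitin minus control) ranged from -2.00 to 0.11 for the Pdk3 share in percentage points, -0.0164 to 0.0441 for the Suclg2 to Sucla2 ratio, -0.1176 to 0.0828 for Got2 to Got1 and -0.0448 to 0.1001 for Pdhb to Pdha1, so these signs rest on single libraries. The other 6 ratios and shares kept their sign. For Ldha the log2 fold change was 0.031 after median-ratio scaling, 0.025 with array weights and -0.118 to 0.099 with 1 library left out.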
